A study of Mus musculus with 8 samples.

Results

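The regions described here are the peaks of ALKBH5 on mouse chromosome 17 between 25 and 29 Mb (positions 25000000 to 29000000, GRCm39). A peak was a member when its summit, the base with the highest signal, lay in that block of 4 Mb. By this rule 422 of the 72953 peaks of the 4 peak lists were members. The block was chosen by peak numbers: it is a run of adjoining 1 Mb windows in which both lists of the truncated protein held more peaks than both lists of the full-length protein. The direction and size of that difference in the block are therefore given as a description, with no test.

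The study used eCLIP, in which UV light fixes proteins to the RNA they touch, the protein is immunoprecipitated and the bound RNA fragments are sequenced. Nuclei came from E14TG2a cells, a mouse embryonic stem cell line, grown in serum with LIF, PD0325901 and CHIR99021 and irradiated with 400 mJ/cm2 at 254 nm. One group was wild type and expressed endogenous full-length ALKBH5, and the other carried the Alkbh5 del-cIDR genotype, in which the protein made from the endogenous gene lacks an intrinsically disordered region. Each genotype had 2 immunoprecipitates and 2 inputs, and 1 peak list from each immunoprecipitate was used. The genotype and replicate of a list were taken from its name. The labels do not say whether the mutant line was a single clone or whether replicates were separate cultures, so p-values measure only the spread between these libraries, which may be technical.

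ALKBH5 is a demethylase that removes N6-methyladenosine, a common internal mark of messenger and long noncoding RNA, and it works mainly in the nucleus. A disordered region is a stretch of protein without a fixed fold, and such stretches often contact RNA or other proteins. A peak in eCLIP marks a place in the transcriptome where fragments piled up above the background of the peak caller. It therefore needs a transcribed RNA as well as bound protein, and the lists hold no expression values. The peaks carry no strand, so transcripts that overlap on opposite strands could not be separated. Annotation of the build of these files was not at hand, so the regions are named by position and genes were not assigned.

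The del-cIDR lists held more summits in the block than the full-length lists. The full-length lists held 74 and 62 summits there, and the del-cIDR lists 128 and 158. Both del-cIDR libraries lay above both full-length libraries, so the genotypes did not overlap. The means were 68.0 ± 8.49 and 143 ± 21.2 summits (SD, n = 2 per genotype), a ratio of 2.10. Per 10000 peaks of the whole list, the full-length libraries had 37.2 and 37.3 and the del-cIDR libraries 72.8 and 83.9. The full-length replicates thus matched closely once list length was taken into account, and the del-cIDR replicates differed more. Of all chromosome 17 peaks, the block held 8.22% and 8.41% in full-length and 12.8% and 14.5% in del-cIDR. Covered length followed the same order, with 42.9 and 25.2 kb of the block under full-length peaks and 58.9 and 74.3 kb under del-cIDR peaks.

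The ratio of 2.10 depended on how close neighbouring peaks were treated. When peaks of 1 library up to 5 kb apart were joined into 1, the block held 53 and 40 joined full-length peaks and 64 and 75 joined del-cIDR peaks, a ratio of 1.495. Per 10000 joined peaks of each library these were 49.2 and 45.2 against 51.8 and 58.7, a ratio of 1.17. The del-cIDR libraries were still the higher ones in both counts, by a smaller ratio. Spacing within each list also differed. Neighbouring summits lay a median of 28.7 and 32.9 kb apart in the full-length lists and 5.60 and 4.46 kb apart in the del-cIDR lists. Of successive summits, 27.4% and 36.1% were within 5 kb in full-length, against 46.5% and 51.6% in del-cIDR. How much of this goes with the number of peaks was not tested. Over the whole lists, joining at 5 kb left 10776 of 19892 and 8847 of 16636 full-length peaks. It left 12365 of 17584 and 12766 of 18841 del-cIDR peaks. Joining thus took away a larger part of the full-length peaks there, the opposite of the order in the block.

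The excess was spread unevenly over windows from both ends and the middle of the block. In 13 of its 16 windows of 250 kb both del-cIDR counts were above both full-length counts, and in none of the 16 was the reverse true. The share depended on window size: in windows of 100 kb this order was found in 16 of 40. Over the whole series, 30.9% of the 7291 windows of 250 kb with at least 1 summit had both del-cIDR counts above, and 19.2% had both full-length counts above. Since the block was chosen on this contrast, the comparison of these shares carries no test. The summed del-cIDR count exceeded the summed full-length count by 150 summits, and the 4 windows with the largest differences gave 83 of these, or 55.3%.

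**Figure D1:**
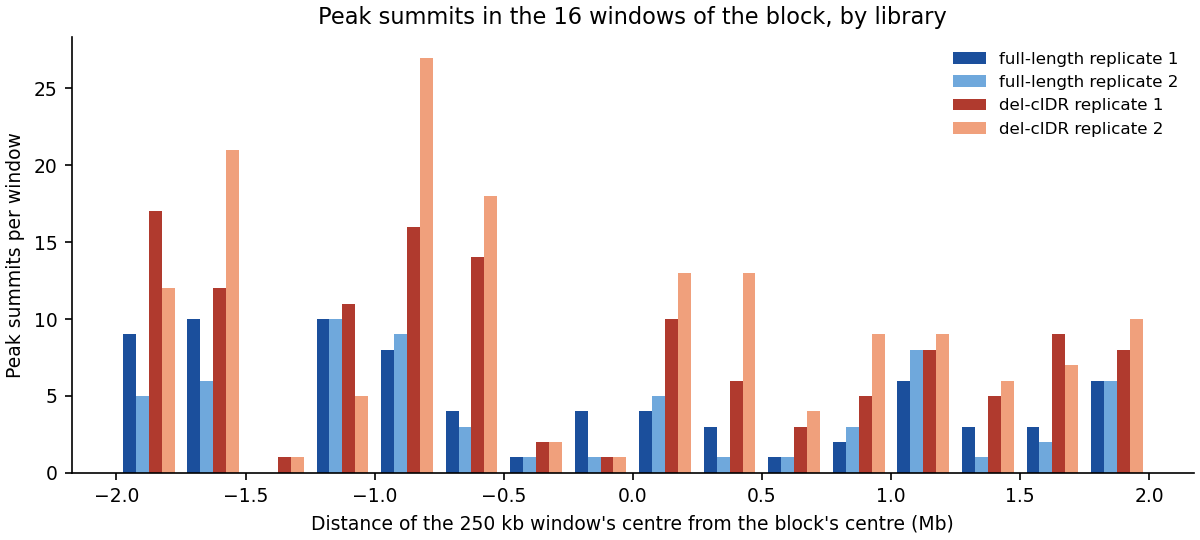
Peak summits per 250 kb window of the block (y axis, counts) against the distance of the window's centre from the centre of the block (x axis, Mb), with 1 bar for each of the 4 libraries. The tallest bar is the 27 summits of del-cIDR replicate 2 between 26.00 and 26.25 Mb, and the windows from 25.50 and 26.50 Mb are almost empty.

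The fullest window, from 26.00 to 26.25 Mb, held 8 and 9 full-length and 16 and 27 del-cIDR summits. The next window, to 26.50 Mb, held 4 and 3 against 14 and 18, a ratio of summed counts of 4.57. These adjoining windows had the largest differences of the block. The first window of the block, up to 25.25 Mb, counted 9 and 5 full-length beside 17 and 12 del-cIDR summits, and the next, to 25.50 Mb, 10 and 6 beside 12 and 21. Closer to the centre, 3 and 1 full-length summits and 6 and 13 del-cIDR summits lay between 27.25 and 27.50 Mb, a ratio of 4.75 on small counts. The windows from 27.00 Mb (4 and 5 against 10 and 13), 27.75 Mb (2 and 3 against 5 and 9) and 28.50 Mb (3 and 2 against 9 and 7) showed the same order. It was also seen, on smaller differences, from 27.50 Mb (1 and 1 against 3 and 4), 28.25 Mb (3 and 1 against 5 and 6) and 28.75 Mb (6 and 6 against 8 and 10).

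In 3 windows the genotypes overlapped. From 25.75 to 26.00 Mb the full-length libraries had 10 and 10 summits and the del-cIDR libraries 11 and 5. Between 26.75 and 27.00 Mb the counts were 4 and 1 against 1 and 1, and between 28.00 and 28.25 Mb they were 6 and 8 against 8 and 9. The first and second of these were the windows with a higher full-length sum. Others were nearly empty in all lists, as from 25.50 to 25.75 Mb, where no full-length summit and 1 del-cIDR summit per replicate was listed, and from 26.50 to 26.75 Mb with 1 and 1 against 2 and 2. Both of these nearly empty windows count among the 13 with both del-cIDR counts above, on very small counts. Across the 16 windows the counts of the replicates were correlated (Spearman 0.858 for full-length and 0.805 for del-cIDR). Across genotypes the 4 values ran from 0.555 to 0.774. These describe 16 windows that share their libraries, and no test was made of them.

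**Figure D2:**
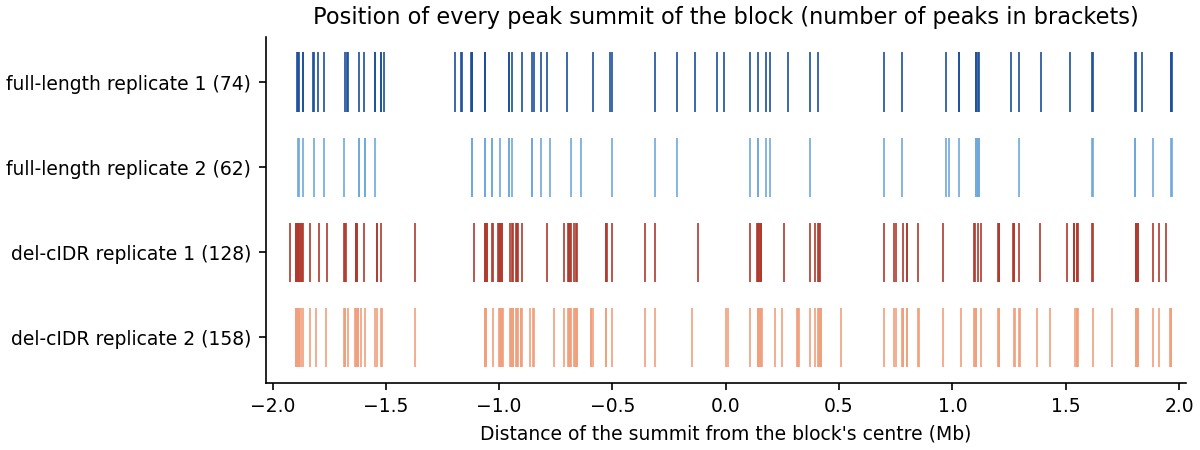
Position of every summit of the block, as its distance from the centre of the block (x axis, Mb), with 1 row for each library and the number of peaks in brackets. Summits of all 4 libraries gather in many of the same places, such as the left edge, and the del-cIDR rows are denser there.

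Peaks of the block gathered in short stretches with long gaps between them. The longest gap without a summit of any library ran from 27508163 to 27699238, over 191 kb, and another of 177 kb ran from 25627675 to 25804827. Joining peaks of all libraries no more than 10 kb apart gave 78 stretches, of which 20 were a single peak. In 21 stretches all 4 libraries had at least 1 peak, and these held 235 of the 422 peaks (55.7%). Their share was 54.1% and 62.9% of the full-length and 57.8% and 51.9% of the del-cIDR peaks. More than 50% of the peaks of each library thus lay in places that every library touched. Both del-cIDR counts were above both full-length counts in 7 of these 21 stretches, and the reverse was found in 0. Stretches were not counted over the whole series, and the block was chosen on a surplus of del-cIDR peaks. Nothing is therefore read from these counts.

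Stretches with many peaks differed in their balance. From 25101436 to 25136341, over 34.9 kb, the lists had 5 and 3 full-length and 13 and 9 del-cIDR peaks. From 26042790 to 26083363, over 40.6 kb, they had 3 and 3 against 8 and 12, and from 25365913 to 25390578 they had 1 and 2 against 5 and 12. The stretch from 27136686 to 27158001 held 1 and 2 against 9 and 8, and that from 26300661 to 26318070 held 1 and 1 against 6 and 6. In each of these, both proteins had peaks, and the del-cIDR peaks were more numerous. The same held from 25937820 to 25947777 (3 and 3 against 7 and 4) and from 28806508 to 28819395 (2 and 3 against 5 and 5). From 25996035 to 26015463 the counts were 0 and 1 against 7 and 7, with no peak of full-length replicate 1. A different balance was seen from 28096414 to 28128741, with 4 and 7 peaks of the full-length and 4 and 5 of the del-cIDR lists. From 25875428 to 25890342 the order was turned, with 4 and 5 peaks of full-length and 1 and 0 of del-cIDR.

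Stretches without any full-length peak and with both del-cIDR libraries numbered 15, and the opposite kind numbered 5. The fullest of the 15 ran from 28534974 to 28554785 with 6 and 5 del-cIDR peaks over 19.8 kb. It was followed by 26332502 to 26344787 with 3 and 5 peaks and by 28202520 to 28208451 with 4 and 3. The 5 full-length stretches each held 1 peak per replicate. The numbers 15 and 5 also follow the contrast that chose the block, and the same kinds were not counted over the whole series.

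Overlapping peaks of the 4 lists (by at least 1 bp) were merged into 252 regions in the block. A del-cIDR-only region has a peak in both del-cIDR lists and in neither full-length list, and a full-length-only region the reverse. There were 62 del-cIDR-only regions, 24.6% of the regions of the block, beside 17.7% of the 43029 regions of the whole series. Full-length-only regions numbered 16, or 6.35%, beside 17.5% in the series. Regions with a peak in all 4 lists numbered 12, or 4.76%, beside 4.7% in the series. The choice of the block sets how the genotype-only classes compare, so nothing is read from their shares. Peaks in a single list made up 140 regions, or 55.6%, beside 52.8% in the series. Of these, 29 and 11 came from the full-length replicates and 35 and 65 from the del-cIDR replicates. Another 14 regions had peaks in 3 lists (5.56%, beside 5.31% in the series) and 8 in 1 list of each genotype (3.17%, beside 2.01%). The counts depended on single libraries and on weak peaks. Without del-cIDR replicate 1 or replicate 2 there were 130 and 101 del-cIDR-only regions, and without full-length replicate 1 or replicate 2 there were 35 and 47 full-length-only regions, since 1 list then defines a genotype. When peaks under 4-fold were left out, 11 del-cIDR-only, 3 full-length-only and 2 shared regions were found.

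**Figure D3:**
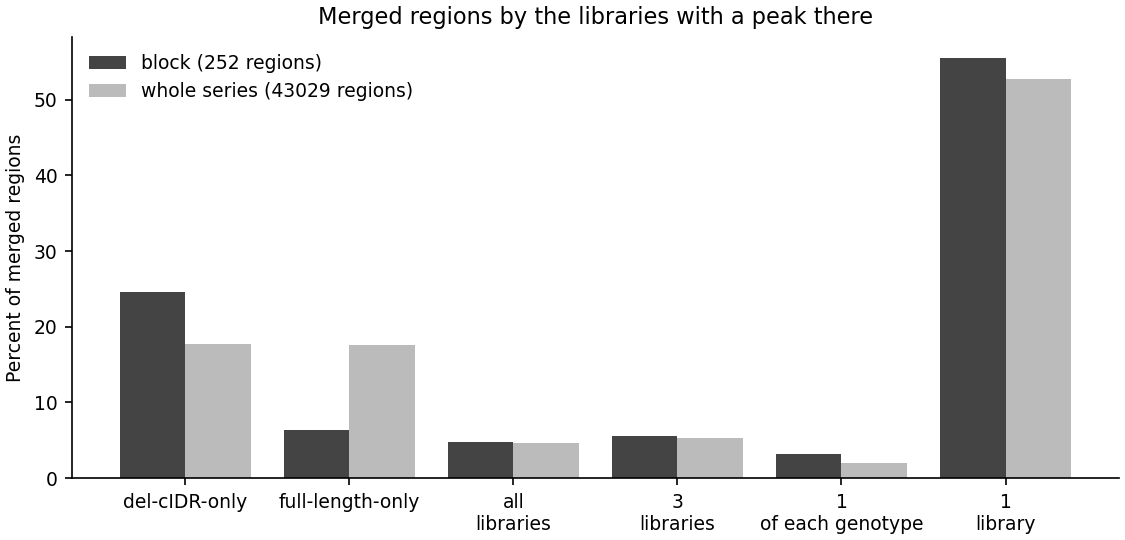
Percent of merged regions (y axis) in each class of libraries (x axis), for the 252 regions of the block in dark bars and the 43029 regions of the series in light bars. Full-length-only regions are 6.35% of the block and 17.5% of the series, while regions of all 4 lists take 4.76% and 4.7%.

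Sites found with both proteins included the best ranked peak of the block in each of the 4 lists. For each peak the authors deposited a fold enrichment over the background of the peak caller and a q-value, and ranks here order the peaks of a list by that q-value. The leading site of all 4 lists lay from 27699195 to 27699500. Its fold enrichment was 7.41 and 24.3 in the full-length replicates and 14.9 and 21.9 in the del-cIDR replicates, and it ranked 303 in full-length replicate 2, 517 in del-cIDR replicate 1 and 384 in del-cIDR replicate 2. These were the best ranks of any peak of the block in those 3 lists. It was 306 bp wide, close to the smallest width of the lists.

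The second shared site, from 27372936 to 27373237, had 7.07-fold and 2.94-fold enrichment in full-length and 14.5-fold and 10.6-fold in del-cIDR, and ranked 1443 in full-length replicate 1, the best rank of the block there. The third, from 27104957 to 27105257, had 7.52-fold and 13.9-fold against 15.7-fold and 20.1-fold. A narrow site of the same width lay from 26687375 to 26687675, with 2.85-fold and 9.87-fold against 8.85-fold and 6.37-fold. These 4 sites were all 301 to 306 bp wide, and their peaks were at or close to the smallest width of each list. The other 8 shared regions ran from 351 to 2278 bp. Of these the widest, from 25115750 to 25118027, lay inside the 34.9 kb stretch named above. The shared region from 27143493 to 27144937 was covered by del-cIDR peaks of 1445 and 1304 bp but by full-length peaks of only 519 and 419 bp. The remaining members of the 10 best ranked had enrichments of 2.05-fold to 6.0-fold and began at 28619266, 25937820, 26057705, 28294866 and 25938512.

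Among del-cIDR-only regions, those with the best mean rank were a pair of narrow sites. The first, at 27741554 to 27741855, was enriched 8.42-fold and 8.95-fold, and the second ran from 27392326 to 27392626, with 15.3-fold and 24.2-fold. Both were at 301 or 302 bp, beside a smallest peak width of 300 and 301 bp in the del-cIDR lists. The second lay less than 20 kb from the shared site at 27372936. Broader regions came next. The region from 26472094 to 26472884 had 2.79-fold and 3.23-fold enrichment over peaks of 782 and 791 bp, and a partner from 26473123 to 26473814 had 2.71-fold and 2.63-fold. The region from 26312235 to 26313044 had 4.08-fold and 5.03-fold. Another close pair lay from 28547969 to 28549165 (2.66-fold and 2.32-fold) and from 28549208 to 28549554 (2.02-fold and 2.45-fold), inside the fullest stretch without a full-length peak. The region from 27151066 to 27152468 held 2 peaks of each replicate, with 4.68-fold and 3.97-fold at the best of them. The region from 28128423 to 28128741 had 4.27-fold and 3.76-fold, and that from 26083063 to 26083363 had 2.15-fold and 5.79-fold. In all 10 both del-cIDR replicates had a peak and both full-length lists had none, which is what defines the class.

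Most del-cIDR-only regions were of modest enrichment. Their median width was 546.5 bp (301 to 1739 bp), beside 719.5 bp (303 to 2301 bp) for full-length-only regions and 497 bp for the 12 shared regions. Over the whole series the medians of these classes were 420, 543 and 304 bp, in the same order and each smaller than in the block. The median over the 62 regions was 3.02-fold in replicate 1 and 3.01-fold in replicate 2, with 14 and 15 regions at 4-fold or more and 9 at 4-fold or more in both. The summits of the 2 replicates in these regions were a median of 38.0 bp apart (quartiles 7.75 and 154.5 bp), and 34 of the 62 were within 50 bp. In the full-length-only set the summits of the 2 replicates were a median of 219.5 bp apart (quartiles 39.5 and 406 bp), and 6 of the 16 were within 50 bp. In the 12 shared regions the del-cIDR summits were a median of 5.5 bp apart and the full-length summits 42.5 bp, so in both genotypes the replicates were closer there than in the genotype-only regions. Each gap was taken between the best ranked peaks of a region, and some regions held more than 1 peak of a library. The 16 full-length-only regions held 37 peaks and the 62 del-cIDR-only regions 131. These gaps were not tested.

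**Figure D4:**
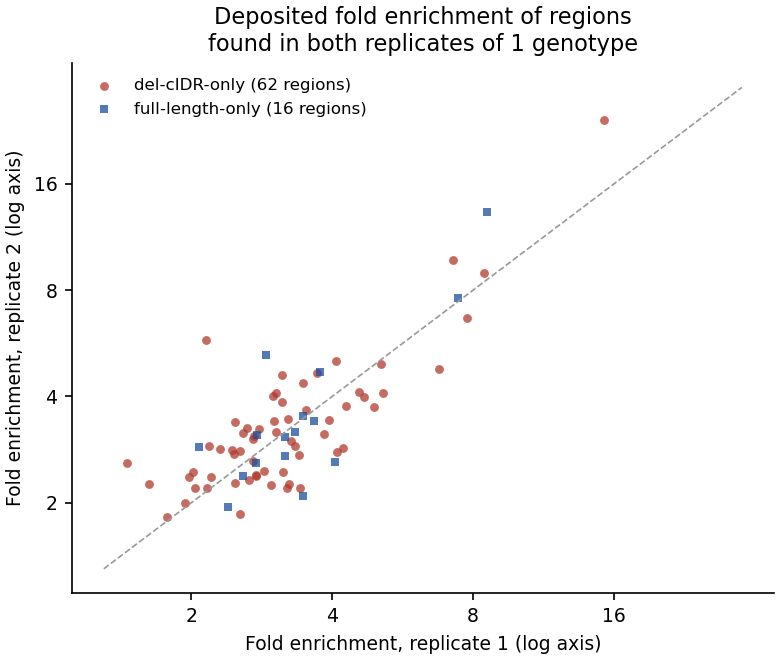
Deposited fold enrichment of replicate 2 (y axis, log scale) against replicate 1 (x axis, log scale) for the 62 del-cIDR-only regions (circles) and the 16 full-length-only regions (squares), each with the best ranked peak of the region and a dashed line of equal values. Most points of both sets lie between 2-fold and 5-fold, and the del-cIDR-only region at 15.3-fold and 24.2-fold stands at the upper right.

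Full-length-only regions were few and were led by a broad one. The one at 25876806 to 25879106 had 8.55-fold and 13.3-fold enrichment, covered by a peak of 2136 bp in replicate 1 and by 2 peaks in replicate 2, the better ranked 1607 bp wide. It lay in the stretch where the order of the genotypes was turned. The region from 27176285 to 27176652 was narrow and had 7.42-fold and 7.60-fold. All others of the 10 best ranked were under 5-fold in both replicates. They began at 28112200 (3.77-fold and 4.70-fold), 26145238 (3.33-fold and 3.18-fold), 25182918 (3.66-fold and 3.42-fold), 25379625 (3.17-fold and 3.07-fold), 26183656 (2.76-fold and 3.12-fold), 27970942 (2.58-fold and 2.38-fold), 25452767 (3.47-fold and 2.10-fold) and 28806508 (2.08-fold and 2.88-fold). None of the 16 full-length-only regions ranked 2000 or better in either list, and 5 of the 62 del-cIDR-only regions did so in each del-cIDR list. The lists hold 16636 to 19892 peaks, and the share of such ranks in these classes over the whole series was not counted. Nothing is therefore read from this difference.

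The distance from a full-length-only region to the nearest del-cIDR-only region was a median of 27.4 kb (quartiles 10.9 and 62.0 kb), and 4 of the 16 were within 10 kb. From a del-cIDR-only region to the nearest full-length-only region it was 62.5 kb, with fewer regions to reach. To the nearest shared region it was 67.1 kb from del-cIDR-only and 110 kb from full-length-only regions. These distances depend on how many regions of each class there are, and no distance was compared with another. Of the 62 del-cIDR-only regions, 32 lay in stretches that held peaks of all 4 libraries, and 6 of the 16 full-length-only regions did.

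Few peaks of the block were broad. The widest was a full-length replicate 1 peak of 4101 bp from 28114979 to 28119079. In replicate 2 the same place held 4 peaks, the best ranked of them 1830 bp wide and the widest full-length peak of the block in that list. The region also held 1 peak of del-cIDR replicate 1, 384 bp wide and enriched 1.95-fold, and none of del-cIDR replicate 2. The widest del-cIDR peaks were 1737 and 1738 bp, at nearly the same position in both replicates, from 25941440. Peaks of 1000 bp or more numbered 6 and 4 in full-length and 4 and 6 in del-cIDR, which is 8.11% and 6.45% against 3.13% and 3.80% of the members. In their whole lists the shares were 11.5% and 6.05% against 1.85% and 2.57%.

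**Figure D5:**
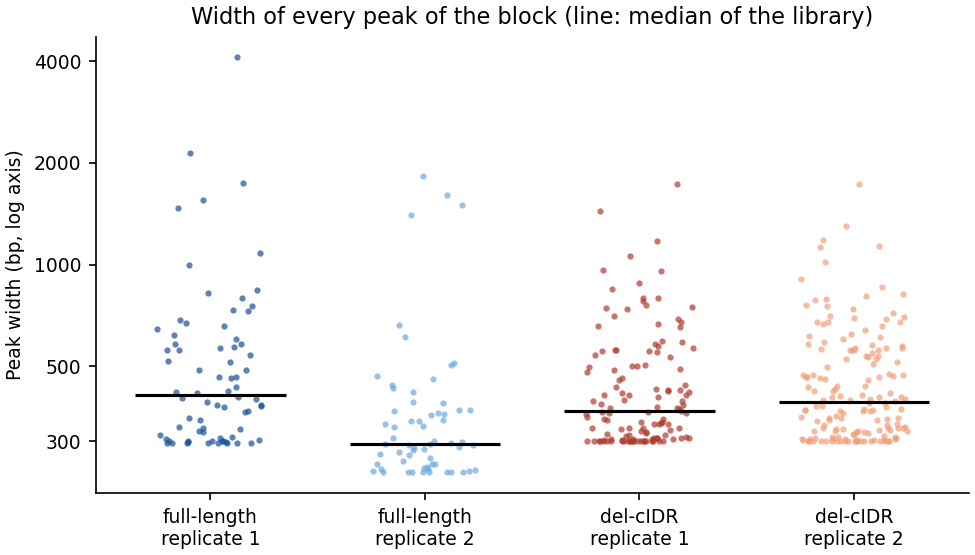
Width of each peak of the block (y axis, bp, log scale) in the 4 libraries (x axis), with a line at the median of each library. The medians are 411.5 and 295 bp in full-length and 368 and 393 bp in del-cIDR, and the lowest points sit at the smallest width of each list.

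Median peak width in the block was 411.5 bp for full-length replicate 1 and 295 bp for replicate 2. For del-cIDR it was 368 bp in replicate 1 and 393 bp in replicate 2. The full-length medians lay above and below both del-cIDR medians, so width did not separate the genotypes. The smallest width of the lists was 297, 243, 300 and 301 bp, so full-length replicate 2 could hold narrower peaks than the other lists, and 8, 7, 20 and 17 members sat at it. Width was not used to choose the block, and it was compared with the rest of chromosome 17 within each library. Full-length replicate 1 was 24.5 bp wider in the block and full-length replicate 2 differed by -7 bp. The del-cIDR replicates were 25 and 34.5 bp wider. The mean difference was 19.25 ± 18.1 bp (SD, n = 4 libraries), higher in 3 of 4 (two-sided exact sign-flip permutation p = 0.25). With 4 libraries the smallest possible p is 0.125. The direction was not stable: with means in place of medians the difference was -29.93 bp (exact permutation p = 0.5). It was 35.62 bp against the rest of the genome (higher in 4 of 4, exact permutation p = 0.125) and 3.125 bp over peaks of at least 4-fold enrichment.

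Fold enrichment was compared in the same way. The median in the block was 3.09 and 3.13 in full-length and 3.02 and 3.01 in del-cIDR, against 3.77 and 3.63 and 2.95 and 3.01 in the rest of chromosome 17. The differences were -0.67 and -0.50 in the full-length and 0.07 and 0.0014 in the del-cIDR libraries, each within its own list. Their mean was -0.28 ± 0.37 (SD, n = 4 libraries), and 2 of 4 were higher in the block (two-sided exact sign-flip permutation p = 0.5). Adjusted over the 2 tests both p-values were 0.5 (exact permutation, Benjamini-Hochberg). The size depended on the setting: it was -1.32 with means in place of medians and -0.73 over peaks of at least 4-fold, both at the smallest possible exact permutation p of 0.125, and -0.15 without full-length replicate 1. Against the rest of the genome it was -0.37 (exact permutation p = 0.125). The full-length differences were both below 0 and the del-cIDR differences both above it. Whether the genotypes differ in this was not tested, with 2 libraries per genotype. Fold enrichment was not used to choose the block, but the peak numbers of the genotypes were.

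By rank the members were spread over the lists. In each library fewer than 25% of them lay in the best 25% of the list, and the share was lower in full-length. In the best 25% of their list lay 8 and 5 full-length members, 10.8% and 8.06%, and 27 and 27 del-cIDR members, 21.1% and 17.1%. The lower 50% of the list held 60.8% and 64.5% of full-length and 56.3% and 49.4% of del-cIDR members. Among the 1000 best ranked peaks of a list the block had 0 and 1 in full-length and 3 and 5 in del-cIDR. Of the whole lists it held 0.372% and 0.373% in full-length and 0.728% and 0.839% in del-cIDR, so all of these counts were under that share. Members at 4-fold enrichment or more numbered 16 and 16 against 30 and 34, a ratio near that of all members.

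Replicates found each other's peaks about as often in the block as in the whole list. Of the full-length members, 48.6% and 69.4% overlapped a peak of the other replicate, beside 54.0% and 76.2% of all full-length peaks. Of the del-cIDR members, 67.2% and 53.8% did, beside 64.5% and 59.7% of all. The exact 95% binomial intervals over members were 36.9 to 60.6% and 56.3 to 80.4% in full-length and 58.3 to 75.2% and 45.7 to 61.8% in del-cIDR. They cover the counting of peaks only. In both genotypes the library with fewer members had the higher share, and its peaks were set against more peaks.

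Overlap across genotypes was uneven. Of the full-length members, 36.5% and 43.5% overlapped some del-cIDR peak, beside 20.7% and 25.4% of all full-length peaks. Of the del-cIDR members, 21.1% and 17.7% overlapped some full-length peak, beside 24.2% and 24.3% of all del-cIDR peaks. Full-length members thus met del-cIDR peaks more often than full-length peaks did elsewhere, in a block chosen on a surplus of del-cIDR peaks. The part of peak numbers in these values was not tested.

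The edges of the block fell in a gap on both sides. The last summits before 25 Mb lay between 24912953 and 24961546 in the 4 lists and the first inside between 25075801 and 25111264. The last summits inside lay between 28944819 and 28967216 and the first beyond 29 Mb between 29020285 and 29025402. The window just before the block, from 24 to 25 Mb, held 39 and 41 full-length and 47 and 65 del-cIDR summits, and the window just after, from 29 to 30 Mb, held 15 and 18 against 22 and 24. In both, the del-cIDR counts were the higher ones, by smaller ratios than inside. The same order held from 23 to 24 Mb, with 15 and 14 against 19 and 16, so the block lies within a longer run of such windows from 23 to 30 Mb. Inside, the counts were 29 and 21 against 41 and 39 from 25 Mb, 17 and 14 against 33 and 48 from 26 Mb, 10 and 10 against 24 and 39 from 27 Mb, and 18 and 17 against 30 and 32 from 28 Mb.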

How the data were processed

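The tools named per the submitters' processing notes are MACS2, STAR, cutadapt and UMI-tools, with the build GRCm39. Their versions and settings, and whether inputs served as control, were not given in the sources used here. The authors deposited 1 peak list per immunoprecipitate, with a fold enrichment (a ratio over the caller's background), the −log10 of its p-value and of its q-value, a score and a summit offset per peak. Lists called wt were taken as full-length ALKBH5, and lists called KI as del-cIDR, the only other genotype. Replicate numbers were also taken from the list names, since the labels do not pair these names with samples. Read depth is unknown, and a longer or denser list can follow from more reads.

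Python 3.11.15, pandas 2.3.3, numpy 2.4.6 and scipy 1.17.1 were used. Summits were counted per window, peaks merged by 1 bp overlap, and replicates compared by overlap. Width and fold enrichment in the block were set against the rest of chromosome 17 by a sign-flip test over libraries. The code was tested on simulated lists. Members, lists and tests were chosen with earlier results of these data known. Named regions were the 10 best by mean rank of −log10 q in each genotype-only set and in the set of all 4 lists, the widest peak of each list, every window, and the summits and windows at the edges. Stretches joined at 10 kb and peaks joined at 5 kb were added after the data were seen. The annotation and promoter tables at hand are on GRCm38.p6 and were not mixed with these positions, so genes and sequences were not used here.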

Additional observations from a re-analysis of the deposited data

How the results depend on the processing

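Over the 8 results 74 values were recomputed. The ratio of summits was 1.88 to 2.32 when each replicate was left out and 2.00 to 2.19 with stricter peaks, lists of equal length (16636 peaks each) or scaling. It went to 1.495 with peaks up to 5 kb apart joined, and to 1.171 when these were also scaled to the library. Windows with both del-cIDR counts above numbered 6 of 8 at 500 kb and 16 of 40 at 100 kb, against 13 of 16. With a fold enrichment of at least 4 there were 11 del-cIDR-only, 3 full-length-only and 2 shared regions, and 43.85% of peaks overlapped the other replicate, against a mean of 59.75%. Leaving out each replicate gave 65 to 130 del-cIDR-only and 19 to 47 full-length-only regions, since a single library then defines a genotype. The mean in place of the median turned the width difference to -29.93 bp (two-sided exact sign-flip permutation p = 0.5), and the cause was not tested. Its other values ran from 3.125 to 35.62 bp, and the fold enrichment difference kept its sign at -0.15 to -1.32. Neither test can reach 0.05 with 4 libraries, so its p-values say nothing of stability. Both tests were paired by library, since they set the block against the rest within each library. Between replicates of the 2 genotypes, no paired analysis was possible because no test compared the genotypes, whose difference chose the block. The number of reads is unknown, so a missing peak does not show missing binding.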

Other observations

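Both del-cIDR counts were above both full-length counts in the run of windows from 23 to 30 Mb. Outside that run the balance varied, and the same order was found again in the windows from 20, 31 and 34 Mb. From 20 to 21 Mb the full-length lists had 0 and 0 summits and the del-cIDR lists 1 and 2, and from 21 to 22 Mb there were 10 and 9 beside 3 and 8. From 22 to 23 Mb, short of the block, the full-length lists held 64 and 47 summits and the del-cIDR lists 4 and 1. Beyond the block, the window from 30 to 31 Mb counted 24 and 10 summits of full-length beside 7 and 8 of del-cIDR, and that from 31 to 32 Mb had 1 and 0 against 14 and 17. The window from 32 Mb had 29 and 25 beside 26 and 32. From 33 to 34 Mb there were 46 and 45 against 15 and 16, and from 34 to 35 Mb 19 and 14 against 42 and 48. The stretch from 20 to 35 Mb was picked after earlier values were seen. How often this order occurs over all 1 Mb windows of the series was not counted, and some of these differences are small.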
